A study of Mus musculus with 150 samples.

Results

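The genes of intraflagellar transport (IFT) and of the BBSome, the cargo machinery that builds and maintains cilia, were followed in mouse lung epithelial cells with and without p53. The set held 35 genes, listed by name with no threshold on a measured value: 7 of the IFT-B core, 6 of the IFT-B periphery, 6 of IFT-A, 4 of the kinesin-2 motors, 2 of the dynein-2 motor, 7 of the BBSome and 3 for BBSome assembly and recruitment. All 35 were found among the 24341 rows of the bulk table and the 31175 gene rows of the single-cell tables. Of the series' 150 samples, 6 were bulk libraries and most of the others were single cells. The bulk knockout libraries (3, replicates 7, 8 and 10) came from p53flox/flox mice and the bulk wild-type libraries (3, replicates 1, 5 and 6) from p53+/+ mice, and both genotypes carried the alleles Scgb1a1-CreERTM and Rosa26-mT/mG. In both the Scgb1a1 promoter, active in airway club cells, drove a Cre that tamoxifen switches on, so p53 was deleted in that lineage and not in the whole animal, although the genotype label reads p53-/-. Sorted cells carried the green lineage label and EpCAM, and lacked CD31, CD34, CD45 and the dead-cell dye 7AAD. The mice were 8 to 12 weeks old, and the protocol gives 70 days after tamoxifen while the titles name day 30. The single cells came from 1 C1 microfluidic chip labelled p53-/- and 1 labelled wild type, both with tamoxifen at 250 mg/kg. The labels do not settle whether the deletion in the chip cells was induced or germline, or whether these cells had been cultured.

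Cilia have no ribosomes, so their parts are carried in by trains of IFT proteins that run along the microtubules of the axoneme. Kinesin-2 pulls trains of IFT-B and IFT-A towards the tip, and dynein-2 brings them back; the BBSome rides on the trains and moves membrane proteins out of the cilium. Primary cilia, single and immotile, are built with these genes in most cell types, and the ciliated cells of the airway, with many motile cilia each, express them strongly.

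The targeted gene was lower in the bulk knockout libraries. Trp53 was at 8.63, 9.98 and 7.56 FPKM in knockout replicates 7, 8 and 10, against 16.6, 22.2 and 21.7 FPKM in wild-type replicates 1, 5 and 6 (FPKM: fragments scaled to transcript length and library size), and a value for the whole gene also counts exons that a floxed allele keeps. In the single cells Trp53 was not lower: it was detected in 16 of 61 cells labelled knockout and in 4 of 66 wild-type cells. Of the 9486 genes reaching 10% of the cells on either chip, 77.6% also had the larger share in cells labelled knockout. Detection of Trp53 therefore does not settle the deletion in these cells, and the chips are called by their labels throughout. Club cell transcripts were abundant in every bulk library, Scgb3a2 being at 17859 to 28302 FPKM in knockout and 8587 to 37396 FPKM in wild type, while Scgb1a1 and Sftpc carry a mark in place of a value there. Wild-type replicate 1 stood apart, with the highest summed level of alveolar type 2 markers and the lowest of club cell markers, and the bulk results that turn on it are given with and without it. Summed FPKM ran from 551392 to 616289 in knockout libraries and from 437710 to 678870 in wild-type libraries, and read numbers are unknown.

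In the bulk cells nearly the whole set had slightly more transcript in knockout than in wild type, and no member passed the test over all genes. Of the 34 members tested, 32 had a positive log2 fold change and 2, Ttc21b and Bbs10, a negative one, while 51.5% of all 11957 tested genes were positive. The median log2 fold change was 0.34 over the members and 0.01 over all tested genes. With limma on log2(FPKM + 1) and an adjusted p of at most 0.05, 0 members passed in either direction. Over all genes 0.0% passed as higher and 0.00836% as lower, which is 1 gene. An unadjusted p under 0.05 was reached by 13 members in the higher and 1 in the lower direction, against 7.04% and 6.06% of all genes. For 14 members all knockout libraries lay above all wild-type libraries and for 1 they lay below, against 9.04% and 10.2% of all genes. Shifting every library to the same median moved that split over all genes from 1081 higher and 1223 lower to 854 higher and 1539 lower, and left 13 higher and 1 lower members. A bulk level cannot tell fewer cells of a type apart from less RNA per cell.

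The count of members past the test depended on wild-type replicate 1. Without it 5 members rose and 0 fell by limma's adjusted p, while 2.82% of all genes passed as higher and 0.594% as lower. The 5 were Traf3ip1 and Ift22 of IFT-B, Ift140 of IFT-A, and Bbs5 and Ttc8 of the BBSome. All members but Ttc21b and Bbs10, 32 of 34, were positive, against 47.3% of all genes, with a median of 0.46, and 28 members lay above and 1 below the wild-type libraries without overlap, against 18.3% and 17.3% of all genes. An unadjusted p under 0.05 was reached by 24 members as higher and 1 as lower, against 9.63% and 7.1%. Keeping all libraries with weights estimated from their scatter, 17 members rose and 1, Bbs10, fell, while 5.47% of all genes passed as higher and 2.17% as lower. Leaving out any of the other 5 libraries gave 0 members past the adjusted threshold, with medians from 0.26 to 0.44. The unadjusted count was 7 higher and 1 lower without wild-type replicate 5 (4.4% and 5.58% of all genes) and 7 higher and 2 lower without wild-type replicate 6 (5.7% and 6.52%). Leaving out knockout replicate 10 instead gave 17 higher and 1 lower (5.87% and 3.41%), and 23 members lay above and 2 below without overlap (14.7% and 13.3%). Of all genes, 0.0167% fell by the adjusted p without that library or without wild-type replicate 6.

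**Figure D1:**
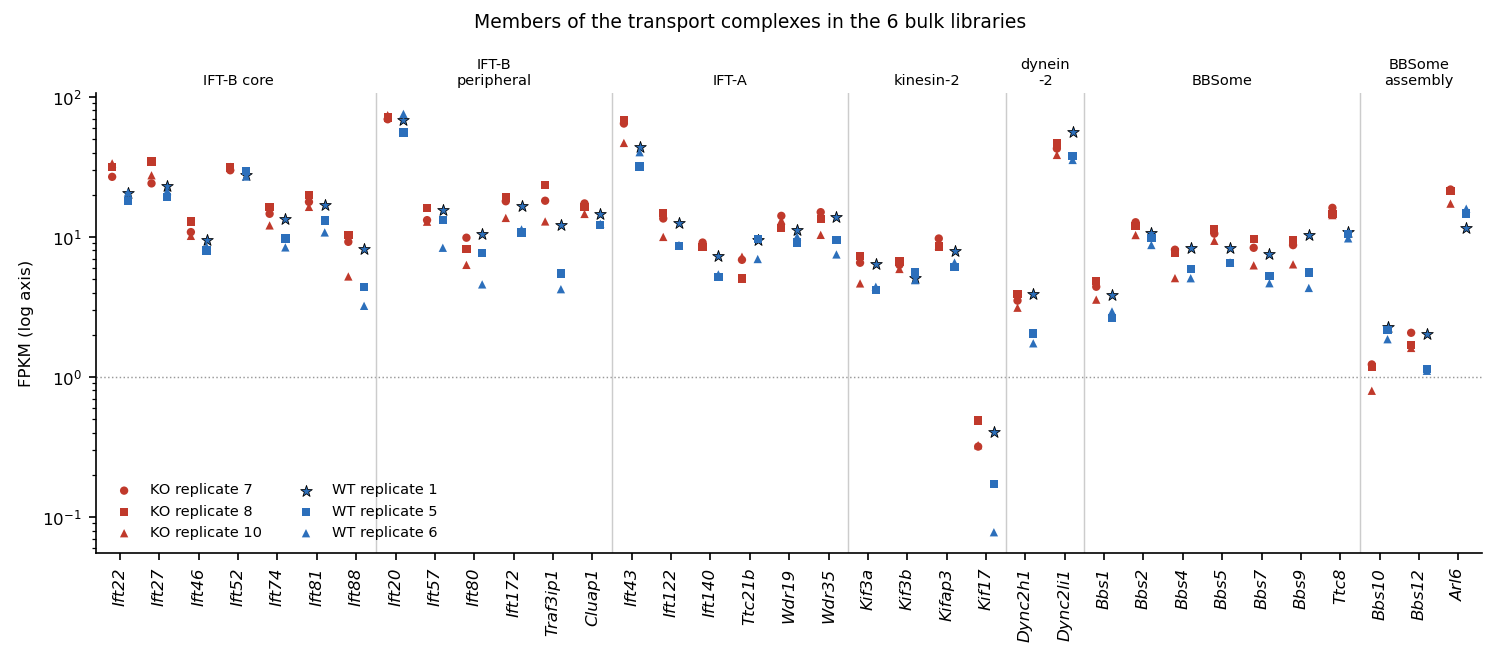
FPKM on a log axis of each of the 35 members in the 6 bulk libraries, grouped by complex, knockout libraries in red to the left and wild-type libraries in blue to the right; the star is wild-type replicate 1 and the dotted line an FPKM of 1. For most genes the star stands above the other wild-type points, and Kif17 is below the line in all 6 libraries.

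The promoters of the 5 members that passed without wild-type replicate 1, and of Bbs10, the member with the most negative fold change, are printed below. They are the bases before the RefSeq transcription start (GRCm38.p6, plus strand, 250 bases, ending earlier where GENCODE annotates an exon). The Ift22 stretch is chr5:136907900-136908149, that of Traf3ip1 is chr1:91494418-91494646 (229 bases) and that of Ift140 is chr17:25015836-25016084 (249 bases). The Bbs5 stretch is chr2:69646921-69647170, that of Ttc8 is chr12:98920324-98920573 and that of Bbs10 is chr10:111298429-111298678. Capitals mark matches, on either strand, to GTTGCC, the core bound by RFX factors, or to a loosened form of their paired X-box site. The loosened form reads GT, any 2 bases, CC, any 3 bases, G, any 2 bases and AC.
Ift22: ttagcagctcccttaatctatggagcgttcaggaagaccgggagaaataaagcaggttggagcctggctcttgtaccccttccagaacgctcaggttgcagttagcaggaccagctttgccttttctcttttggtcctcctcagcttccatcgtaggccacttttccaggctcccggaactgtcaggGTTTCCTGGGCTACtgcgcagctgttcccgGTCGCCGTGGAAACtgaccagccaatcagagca
Traf3ip1: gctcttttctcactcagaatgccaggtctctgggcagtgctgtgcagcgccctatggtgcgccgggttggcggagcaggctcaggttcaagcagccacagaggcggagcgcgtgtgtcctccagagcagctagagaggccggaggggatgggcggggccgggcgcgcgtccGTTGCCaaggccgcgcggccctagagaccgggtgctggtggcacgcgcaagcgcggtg
Ift140: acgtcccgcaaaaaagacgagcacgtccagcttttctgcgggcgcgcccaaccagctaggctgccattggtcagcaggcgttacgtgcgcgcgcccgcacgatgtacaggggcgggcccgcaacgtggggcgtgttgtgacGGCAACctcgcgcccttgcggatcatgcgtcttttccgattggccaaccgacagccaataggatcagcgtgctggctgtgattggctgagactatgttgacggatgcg
Bbs5: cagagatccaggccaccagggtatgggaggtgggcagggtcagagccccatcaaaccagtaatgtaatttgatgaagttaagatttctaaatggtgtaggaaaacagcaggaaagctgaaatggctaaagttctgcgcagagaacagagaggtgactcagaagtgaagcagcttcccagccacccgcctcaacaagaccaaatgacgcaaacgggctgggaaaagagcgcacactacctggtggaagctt
Ttc8: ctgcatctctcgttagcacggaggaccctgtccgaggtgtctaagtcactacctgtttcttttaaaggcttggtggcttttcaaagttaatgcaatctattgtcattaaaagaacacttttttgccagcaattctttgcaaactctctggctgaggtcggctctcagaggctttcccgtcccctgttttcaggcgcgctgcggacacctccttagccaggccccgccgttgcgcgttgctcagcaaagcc
Bbs10: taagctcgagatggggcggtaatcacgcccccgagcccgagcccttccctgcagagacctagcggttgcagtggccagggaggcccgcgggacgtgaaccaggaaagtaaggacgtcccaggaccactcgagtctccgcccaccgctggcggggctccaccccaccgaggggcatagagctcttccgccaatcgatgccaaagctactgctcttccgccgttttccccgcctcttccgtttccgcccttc
Ift22 held the loosened X-box at 2 places, each read on both strands, Traf3ip1 and Ift140 held the core at 1 place each, and Bbs5, Ttc8 and Bbs10 held neither in these bases.

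Of the 35 members, 31 had a promoter in the RefSeq table, all but Ift80, Ift81, Ift122 and Dync2li1. In the 250 bases before the start, the core was present for 7 of 31 members (22.6%) and in 10.4% of all 32851 promoters. Here and below a member counted if any of its listed promoters matched, while the share over all is per promoter. A gene with several promoters has more occasions to match, so the paired shares are not in the same unit. The members were Bbs7, Ift140, Ift27, Ift57, Kif17, Kif3a and Traf3ip1. The loosened X-box was present for 4 of 31 (12.9%), namely Bbs7, Ift22, Ift57 and Wdr19, and in 3.81% of all. Over the whole 300 bases, 50 of them after the start, the core was present for 13 members (41.9%, against 12.5% of all) and the loosened X-box for 7 (22.6%, against 4.62%). The full X-box palindrome, which is the core, the bases AT and the core's reverse complement, was present for 0 of 31 members and in 0.0183% of all promoters. The forkhead core GTAAACA was present for 0 of 31 members and in 3.65% of all promoters. A match says only that these letters stand in the window. The members lie on 16 chromosomes. For 7 of them an exon overlaps an exon of another gene in GENCODE (mm10), on the opposite strand for 6 and on the same strand for 3. These 7 are Ift88, Ift57, Cluap1, Kif17, Bbs4, Bbs12 and Arl6, and their FPKM is uncertain to that extent. The counting is not stated to use strand, and strand would not separate the same-strand overlaps of Cluap1, Kif17 and Bbs12.

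Of the IFT-B core, which forms the spine of the train, all 7 genes had positive fold changes, with a median of 0.40. For 4 of 7 the knockout libraries lay all above the wild-type ones, against 9.04% of all genes. Ift22, a small GTPase-like subunit on chromosome 5 (136908150 to 136915404, mm10), had the smallest p of the set. It was at 26.8, 31.6 and 33.5 FPKM in knockout replicates 7, 8 and 10, against 20.5, 18.1 and 20.7 FPKM in wild-type replicates 1, 5 and 6, the order used for all values below. The groups do not overlap, and here wild-type replicate 1 lies among the other wild-type libraries. The log2 fold change of Ift22 was 0.61 ± 0.11 (SE; limma p = 0.00112, adjusted p = 0.223), and 0.63 ± 0.12 without wild-type replicate 1 (adjusted p = 0.0426). Ift88, whose hypomorphic mutation causes the polycystic kidney phenotype of the Oak Ridge mouse, was at 9.22, 10.4 and 5.22 FPKM in knockout, against 8.14, 4.39 and 3.22 FPKM in wild type. Its fold change of 0.60 ± 0.34 (adjusted p = 0.488) is near that of Ift22 but with a wider error, and its groups overlap, knockout replicate 10 lying below wild-type replicate 1. Ift46, which in Chlamydomonas carries outer dynein arms, was at 10.8, 12.9 and 10.2 FPKM in knockout, against 9.52, 7.99 and 8.52 FPKM in wild type (0.34 ± 0.12). Ift52, a scaffold that joins the core's parts, was at 29.9, 31.3 and 31.6 FPKM in knockout, against 27.7, 29.5 and 26.98 FPKM in wild type (0.14 ± 0.08), the smallest fold change of the core, yet without overlap. Ift27, a small GTPase that links the train to BBSome exit, and Ift74 and Ift81, which together bind tubulin, had fold changes from 0.40 to 0.42.

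The IFT-B peripheral genes, which load motors and cargo onto the core, were positive for all 6, with a median of 0.25 and the widest range of any complex. Traf3ip1, known as IFT54 (chromosome 1, 91494647 to 91529307), had the largest fold change of the set. It was at 18.1, 23.5 and 12.9 FPKM in knockout, against 12.2, 5.49 and 4.23 FPKM in wild type. Every knockout library was above every wild-type library, but the gap between the lowest knockout and the highest wild-type value is small beside the distance from wild-type replicate 1 to the other wild-type libraries. The means were 18.2 ± 5.29 FPKM in knockout and 7.29 ± 4.26 FPKM in wild type (SD, n = 3 each), a ratio of 2.49. The log2 fold change was 1.29 ± 0.36 (adjusted p = 0.312), and 1.68 ± 0.24 without wild-type replicate 1 (adjusted p = 0.0190). Ift172, the largest subunit of the periphery, was at 18.0, 19.1 and 13.7 FPKM in knockout, against 16.7, 10.7 and 11.3 FPKM in wild type (0.37 ± 0.20), with wild-type replicate 1 inside the knockout range. Ift20, which also sorts membrane proteins at the Golgi, was the most abundant member by FPKM. It was at 69.2, 71.2 and 73.9955 FPKM in knockout, against 68.2, 55.5 and 75.5 FPKM in wild type (0.11 ± 0.13), and the groups overlap. Ift80 was at 9.87, 8.20 and 6.31 FPKM in knockout, against 10.5, 7.68 and 4.58 FPKM in wild type (0.13 ± 0.28), with the highest and the lowest library both wild type. Ift57 and Cluap1, known as IFT38, had fold changes of 0.20 and 0.29. The signs of Ift20, Ift57 and Ift80 each turned with at least 1 library left out, at most to -0.15.

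Of the IFT-A genes, which serve return transport and the entry of membrane proteins, 5 of 6 were positive, with a median of 0.33. Ift43 was at 64.5, 68.4 and 46.9 FPKM in knockout, against 43.7, 31.8 and 40.2 FPKM in wild type. No library of Ift43 crossed over, and its fold change was 0.62 ± 0.18 (adjusted p = 0.312). Ift140 (chromosome 17, 25016085 to 25099495), a subunit of the IFT-A core, was at 9.11, 8.46 and 8.54 FPKM in knockout, against 7.28, 5.19 and 5.40 FPKM in wild type. Its knockout libraries lay close together, with a mean of 8.70 ± 0.356 FPKM in knockout and 5.96 ± 1.15 FPKM in wild type (SD, n = 3 each). The fold change of Ift140 was 0.49 ± 0.14 (adjusted p = 0.309), and 0.62 ± 0.11 without wild-type replicate 1 (adjusted p = 0.0263). Wdr19, known as IFT144, was at 14.1, 11.5 and 13.1 FPKM in knockout, against 11.1, 9.13 and 10.03 FPKM in wild type (0.33 ± 0.12). Ttc21b, known as IFT139, went the other way from the rest of IFT-A. It was at 6.86, 5.05 and 7.22 FPKM in knockout, against 9.50, 9.69 and 6.95 FPKM in wild type (-0.40 ± 0.17, adjusted p = 0.390), and wild-type replicate 6 lies within the knockout range. Ift122 and Wdr35 each had a fold change of 0.33.

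The motor genes tested were all positive, except Dync2li1 under the alternatives named below, with medians of 0.25 for kinesin-2 and 0.20 for dynein-2. Kif3a and Kif3b, which pair as the heavy chains of heterotrimeric kinesin-2, and Kifap3, their accessory subunit, form one motor. Kif3a was at 6.53, 7.27 and 4.65 FPKM in knockout, against 6.45, 4.18 and 4.41 FPKM in wild type (0.25 ± 0.20), and its groups overlap. Kif3b was at 6.30, 6.67 and 5.90 FPKM in knockout, against 5.12, 5.58 and 4.91 FPKM in wild type (0.23 ± 0.11). Kifap3 was at 9.74, 8.55 and 8.62 FPKM in knockout, against 7.91, 6.07 and 6.56 FPKM in wild type (0.35 ± 0.12, adjusted p = 0.336). Neither Kif3b nor Kifap3 had overlapping groups. Kif17, a homodimeric kinesin-2, was at 0.318, 0.488 and 0.325 FPKM in knockout, against 0.401, 0.172 and 0.0778 FPKM in wild type. It is the only member below the filter on low values, which asked for 3 or more libraries at an FPKM of 1 or above, and was not tested. For dynein-2, the heavy chain gene Dync2h1 was at 3.51, 3.91 and 3.12 FPKM in knockout, against 3.94, 2.04 and 1.74 FPKM in wild type (0.38 ± 0.23, and 0.64 ± 0.15 without wild-type replicate 1). The light intermediate chain gene Dync2li1 was at 42.7, 46.5 and 38.5 FPKM in knockout, against 55.97, 37.96 and 35.4 FPKM in wild type. The highest library of both dynein-2 genes was wild-type replicate 1. Dync2li1 had the fold change nearest to 0 of the set, 0.01 ± 0.18 (adjusted p = 0.991). It turned negative with libraries shifted to the same median or scaled to the same upper quartile. The sign also turned without knockout replicate 8, without wild-type replicate 5 and without wild-type replicate 6.

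All 7 BBSome genes were positive, with a median of 0.35. Ttc8, known as BBS8 (chromosome 12, 98920574 to 98983238), was at 16.1, 14.5 and 14.3 FPKM in knockout, against 10.9, 10.4 and 9.76 FPKM in wild type. The groups were apart by more than either group's range, with means of 14.99 ± 0.987 FPKM in knockout and 10.4 ± 0.556 FPKM in wild type (SD, n = 3 each). The fold change of Ttc8 was 0.49 ± 0.09 (adjusted p = 0.237), and 0.53 ± 0.10 without wild-type replicate 1 (adjusted p = 0.0422). Bbs5 (chromosome 2, 69647171 to 69667571), a subunit with lipid-binding domains, was at 10.5, 11.3 and 9.38 FPKM in knockout, against 8.34, 6.49 and 6.58 FPKM in wild type. Its fold change was 0.49 ± 0.13 (adjusted p = 0.308), and 0.59 ± 0.11 without wild-type replicate 1 (adjusted p = 0.0400). Bbs2 and Bbs4 had the smallest fold changes of the complex. Bbs2 was at 12.7, 11.9 and 10.3 FPKM in knockout, against 10.7, 9.80 and 8.75 FPKM in wild type (0.24 ± 0.12). Bbs4 was at 8.10, 7.73 and 5.08 FPKM in knockout, against 8.36, 5.89 and 5.07 FPKM in wild type (0.10 ± 0.22), overlapping nearly from end to end. Bbs1, Bbs7 and Bbs9 had fold changes from 0.31 to 0.42, each with wild-type replicate 1 above knockout replicate 10.

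The 3 genes that assemble or recruit the BBSome did not share a direction. Bbs10, a chaperonin-like protein needed to fold BBSome subunits (chromosome 10, 111298679 to 111301727), was the member with the most negative fold change. It was at 1.23, 1.18 and 0.796 FPKM in knockout, against 2.26, 2.17 and 1.86 FPKM in wild type. The groups do not overlap, and the ratio of means was 0.509. The fold change of Bbs10 was -0.59 ± 0.15 (p = 0.00546, adjusted p = 0.308 by limma), and -0.55 ± 0.17 without wild-type replicate 1 (adjusted p = 0.164). Bbs12, its partner in the same chaperonin complex, was at 2.07, 1.69 and 1.61 FPKM in knockout, against 2.02, 1.14 and 1.11 FPKM in wild type (0.22 ± 0.18). Arl6, the small GTPase that recruits the BBSome to membranes, was at 21.8, 21.3 and 17.3 FPKM in knockout, against 11.6, 14.7 and 15.9 FPKM in wild type. Its groups do not overlap, and unlike most members its lowest library is wild-type replicate 1. The fold change of Arl6 was 0.49 ± 0.15 (adjusted p = 0.312), and 0.37 ± 0.12 without that library.

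**Figure D2:**
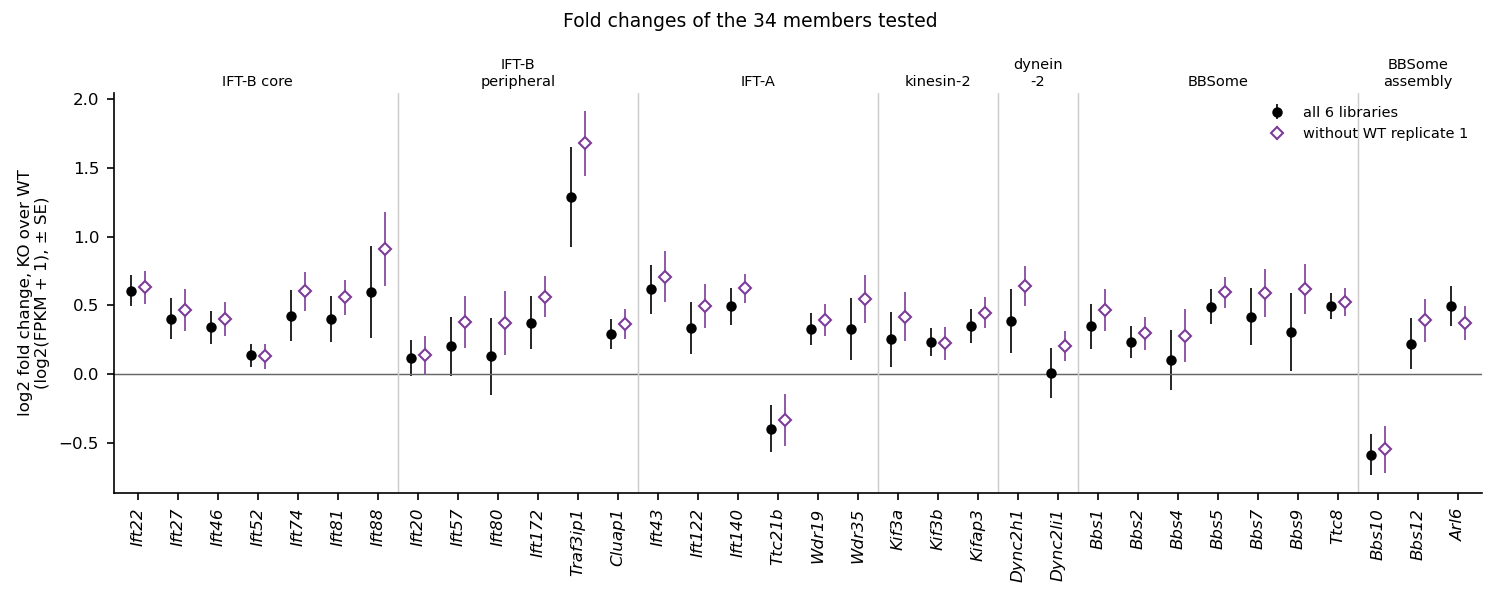
Log2 fold change, knockout over wild type, of the 34 members tested, on the log2(FPKM + 1) scale with standard errors, from all 6 libraries (filled) and without wild-type replicate 1 (open). Traf3ip1 stands highest in both, and Ttc21b and Bbs10 are below 0 in both.

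Leaving out wild-type replicate 1 raised the median log2 fold change of every complex. It was then 0.56 for the IFT-B core, 0.38 for the periphery, 0.52 for IFT-A, 0.42 for kinesin-2 and for dynein-2, 0.53 for the BBSome and 0.37 for the assembly genes. Ift52, at 0.13, Kif3b, at 0.22, and Arl6, at 0.37, were the members with a smaller value than over all 6 libraries.

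Over the members as a whole, wild-type replicate 1 stood with the knockout libraries. The mean log2(FPKM + 1) of the 34 tested members was 3.75, 3.79 and 3.52 in knockout, against 3.63, 3.28 and 3.20 in wild type. Wild-type replicate 1 was the highest of the wild-type libraries for 28 of 34 members and for 41.2% of all tested genes. It lay below every knockout library for 15 members, within their range for 12 and above it for 7. Wild-type replicate 5 lay below every knockout library for 29 members and replicate 6 for 31. The ciliated cell markers ordered the 6 libraries the same way as the members did, from knockout replicate 8 down to wild-type replicate 6, with wild-type replicate 1 between knockout replicates 7 and 10. All 12 of these markers were tested and positive, with a median log2 fold change of 1.47. Their summed level was 747 to 1290 FPKM in knockout libraries and 234 to 787 FPKM in wild-type libraries, and none was at 0 in any library. None of them is a member, while Foxj1, Ccdc113, Rsph1, Tekt1 and Dynlrb2 also stand in the lists of cilium genes described after them. Their part in the members' result was not tested.

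Markers of other cells differed in level as well, and their part was not tested either. Alveolar type 2 markers were negative for 8 of 8 tested, with summed levels of 6221 to 6762 FPKM in knockout and 6990 to 12156 FPKM in wild type. Immune markers were negative for 6 of 6 tested (26.4 to 45.4 FPKM in knockout and 57.7 to 83.99 FPKM in wild type). Endothelial markers were negative for 2 of 3 tested, with summed levels of 73.3 to 111 FPKM in knockout and 99.7 to 129 FPKM in wild type, and fibroblast and smooth muscle markers for 4 of 5, with 13.4 to 16.3 FPKM in knockout and 6.71 to 39.3 FPKM in wild type. Goblet cell markers were positive for 6 of 6 tested (402 to 1087 FPKM in knockout and 71.8 to 1155 FPKM in wild type) and club cell markers for 8 of 8 (62390 to 80367 FPKM in knockout and 27687 to 92391 FPKM in wild type), with both lists lowest in wild-type replicate 1. The directions of 3 lists turned without that library: goblet cell markers then had 1 positive and 5 negative, club cell markers 2 positive and 6 negative, and fibroblast and smooth muscle markers 4 positive and 1 negative. Alveolar type 2 markers were then negative for 7 of 8, immune markers for 6 of 6 and endothelial markers for 2 of 3. Of 4 basal cell markers 0 passed the filter, and Krt5, Krt14, Trp63 and Ngfr were each below 0.36 FPKM in every library.

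The neighbours of the members in the cilium, from lists chosen by function, were mostly positive too, with no gene past the adjusted threshold over all 6 libraries. Without wild-type replicate 1, 4 of 13 other IFT and motor genes, 3 of 21 transition zone genes and 1 of 6 small GTPase genes rose by limma's adjusted p. In that setting 0 of 9 other BBSome-related genes and 0 of 4 hedgehog genes passed. Of all genes, 2.82% then passed as higher and 0.594% as lower. Of 13 other IFT and motor genes tested, 12 were positive, with a median of 0.47. Dynll1, a dynein light chain, was at 112, 124 and 107 FPKM in knockout, against 69.01, 69.5 and 86.2 FPKM in wild type. Tctex1d2, a light chain of dynein-2, was at 18.2, 25.5 and 26.2 FPKM in knockout, against 13.05, 13.2 and 17.2 FPKM in wild type. Both had groups that do not overlap. Of 9 other BBSome-related genes 7 were positive, with a median of 0.16. Bbip1, the smallest subunit of the BBSome, had a fold change of 0.27 ± 0.11 and Lztfl1, which regulates its entry into cilia, one of 0.24 ± 0.12. Of 21 genes of the transition zone, the gate at the base of the cilium, 19 were positive, with a median of 0.32. B9d1, of the MKS complex there, was at 37.2, 45.1 and 31.6 FPKM in knockout, against 24.6, 20.96 and 23.3 FPKM in wild type, and Tmem237 had a fold change of 0.59 ± 0.14. Of 6 genes of ciliary membrane small GTPases and their partners 5 were positive, with a median of 0.25, Arl13b at 0.39 ± 0.12 and Rab23 at 0.49 ± 0.15. Hedgehog signalling, which runs through the primary cilium, gave 4 tested genes, all negative, with a median of -0.08 (3 negative and 1 positive without wild-type replicate 1). These were Smo, Gli3, Ptch1 (-0.27 ± 0.21) and Sufu (-0.07 ± 0.10).

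Genes of the motile cilium had larger fold changes than the transport genes, a difference given as values and not tested. All 8 tested regulators of multiciliogenesis were positive, with a median of 0.60, and all 20 motile axoneme genes were positive, with a median of 1.26. Foxj1, the transcription factor of motile cilia, was at 22.6, 32.9 and 22.04 FPKM in knockout, against 18.6, 5.52 and 5.12 FPKM in wild type. Myb, which acts early in multiciliogenesis, was at 6.68, 8.10 and 6.87 FPKM in knockout, against 5.33, 2.18 and 2.33 FPKM in wild type. In both genes wild-type replicate 1 was the highest wild-type library, as for most members. Among the axoneme genes, Rsph9 of the radial spoke head was at 56.8, 66.4 and 40.1 FPKM in knockout, against 38.9, 17.7 and 20.7 FPKM in wild type, and Tekt1, a tektin, had a fold change of 1.89 ± 0.59. The mean level of the axoneme genes was 3.59, 3.87 and 3.05 on the log2(FPKM + 1) scale in knockout, against 3.42, 1.87 and 1.64 in wild type, the same order of libraries as for the members. Without wild-type replicate 1, 18 of the 20 axoneme genes rose by limma's adjusted p, with a median of 1.86, beside 5 of 34 members. In the same setting 4 of 8 regulators and 12 of 12 ciliated cell markers rose, against 2.82% of all genes.

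**Figure D3:**
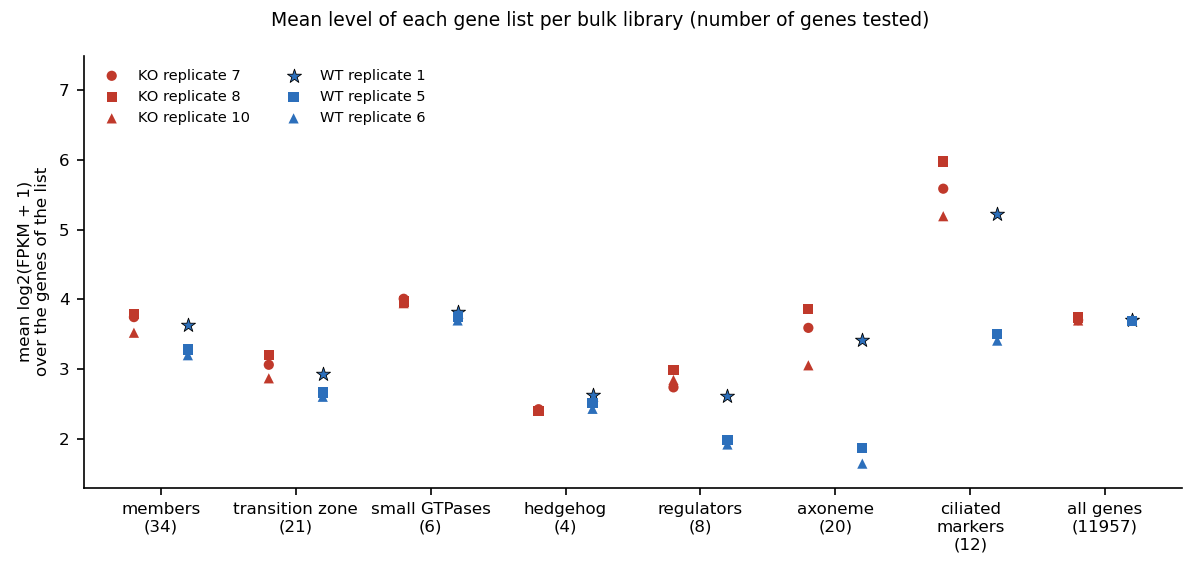
Mean log2(FPKM + 1) of each gene list in the 6 bulk libraries, knockout in red to the left and wild type in blue to the right, with the number of genes tested below each list. The star, wild-type replicate 1, stands near the knockout libraries for the members, the transition zone genes, the regulators, the axoneme genes and the ciliated markers, while all 6 libraries coincide over all genes.

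In the single cells most members were detected in a minority of cells on both chips. Values there are TPM, transcript levels corrected for length and scaled to the same total in every cell. A gene counts as detected at a TPM of at least 1, and cells needed at least 1000 detected genes. This left 61 cells labelled knockout and 66 wild-type cells. With 1 chip per genotype there is no test, and the intervals (exact binomial for a share, Newcombe for a difference, 95%) cover counting error only. The median number of members detected per cell was 6 (range 1 to 14) in cells labelled knockout and 4 (0 to 15) in wild-type cells. Cells labelled knockout also had more genes detected in all, a median of 3580 genes against 3130.5 in wild-type cells. Per 1000 detected genes the medians were 1.53 members in cells labelled knockout and 1.52 in wild-type cells. The spike-in share of TPM was 6.28% in cells labelled knockout and 13.2% in wild-type cells at the median.

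**Figure D4:**
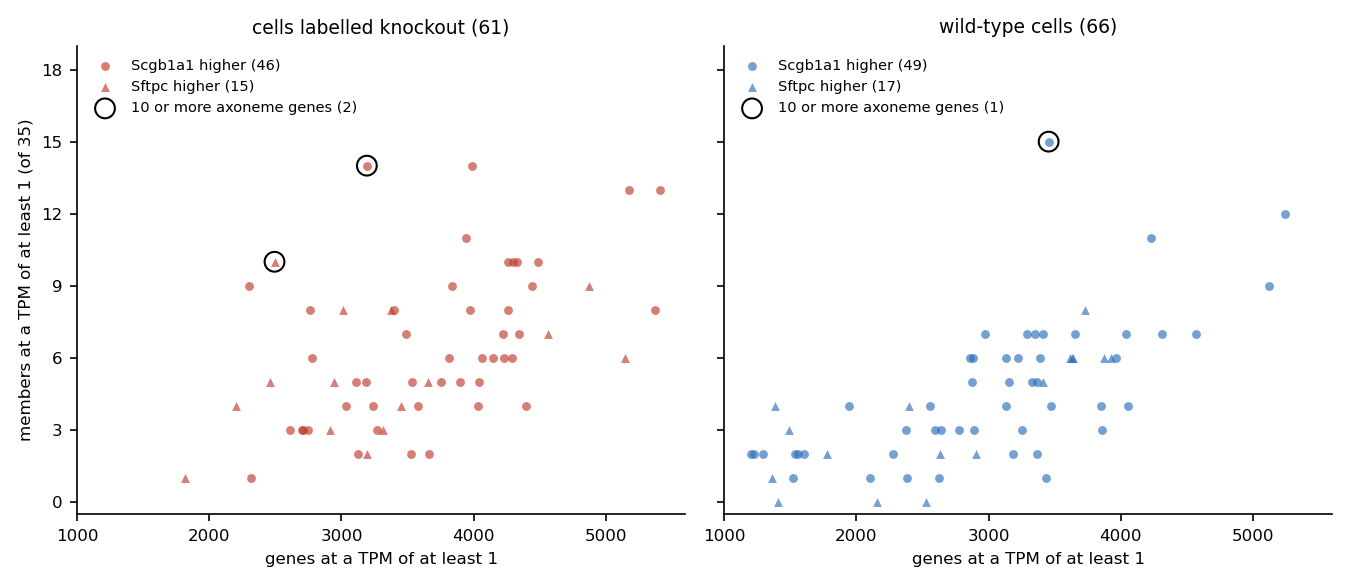
Members detected against all genes detected per cell, in the 61 cells labelled knockout (left) and the 66 wild-type cells (right); circles have more Scgb1a1 than Sftpc, triangles the reverse, and rings mark the 3 cells with 10 or more axoneme genes. Cells with more detected genes tend to have more detected members on both chips, and the ringed cells stand above the others of similar gene number.

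The members differed between the chips about as much as other genes did. Of 35 members, 26 reached a share of 10% of the cells on one chip or the other. Ift22, Ift80, Ift88, Ift172, Ttc21b, Dync2h1, Bbs5, Bbs9 and Arl6 reached it only on the chip labelled knockout, and no member only on the wild-type chip. For these genes the rule itself fixed a larger share of cells labelled knockout, so the counts that follow are a description only. Of the 26, 23 had a higher mean log2(TPM + 1) in cells labelled knockout and 3 a lower one. Of the 9486 genes passing the same rule, 76.1% were higher. The median difference was 0.28 for the members and 0.25 for all these genes. Of the 26, 22 were detected in a larger share of cells labelled knockout, against 77.6% of all. A difference of at least 1 was reached by 1 member, Arl6, against 8.03% of all genes in the higher and 0.137% in the lower direction.

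Ift20 was the member detected in most cells, as it was the most abundant in bulk. It was detected in 39 of 61 cells labelled knockout (63.9%, 50.6% to 75.8%) and 41 of 66 wild-type cells (62.1%, 49.3% to 73.8%). Ift43 was detected in 21 cells labelled knockout (34.4%) and 17 wild-type cells (25.8%), and Dync2li1 in 17 cells of each chip. Ift52 was in 15 cells of each chip and Kif3a in 14 cells labelled knockout and 16 wild-type cells. These 5 genes had intervals of the difference that span 0. Ift46 and Bbs1 were each detected in 46 of 127 cells. The largest difference in share was that of Ift46, in 28 cells labelled knockout (45.9%, 33.1% to 59.2%) and 18 wild-type cells (27.3%, 17.03% to 39.6%), a gap of 18.6 percentage points (1.90 to 34.1). Ift172 was detected in 11 cells labelled knockout (18.0%) and 1 wild-type cell (1.52%), a gap of 16.5 points (6.42 to 28.0). Bbs1 was detected in 27 cells labelled knockout (44.3%) and 19 wild-type cells (28.8%), a gap of 15.5 points (-1.22 to 31.1). Arl6 was detected in 14 cells labelled knockout (22.95%) and 5 wild-type cells (7.58%), a gap of 15.4 points (2.84 to 28.1), and its mean log2(TPM + 1) was 1.26 ± 2.53 in cells labelled knockout and 0.20 ± 0.75 in wild-type cells (SD over cells). Dync2h1, in 13 cells labelled knockout and 4 wild-type cells, had a gap of 15.3 points (3.28 to 27.6). Bbs9, in 10 cells labelled knockout and 3 wild-type cells, had a gap of 11.8 points (1.07 to 23.5). No member had an interval of the difference wholly below 0. How many of all genes have an interval apart from 0 was not counted, and 77.6% of the 9486 genes above had the larger share in cells labelled knockout. These gaps are therefore not shown to be particular to the members. At the low end Kif17 was detected in 1 and Bbs10 in 2 of 61 cells labelled knockout, and both in 0 of 66 wild-type cells. Bbs12 was detected in 0 of 127 cells. For Bbs12 the upper bound of the exact interval was 5.87% of cells labelled knockout and 5.44% of wild-type cells. The bulk difference of Bbs10 was therefore not detectable in the cells.

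**Figure D5:**
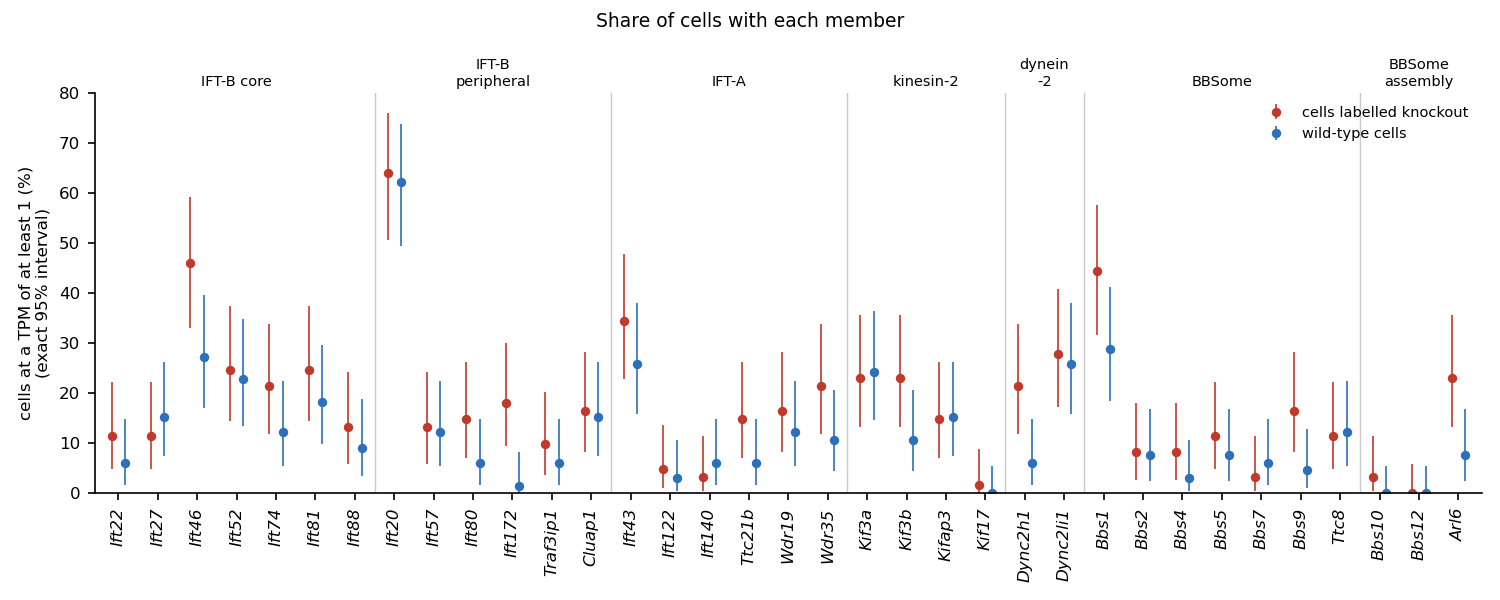
Share of cells in which each member was detected, with exact 95% intervals, for the 61 cells labelled knockout (red, left) and the 66 wild-type cells (blue, right), grouped by complex. Ift20 is near 63% on both chips, and the intervals of the chips overlap for most members.

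Both kinds of cell on the chips carried members. In cells with more Scgb1a1 than Sftpc, the surfactant transcript of alveolar type 2 cells, the median was 6 members in 46 cells labelled knockout and 4 in 49 wild-type cells. In cells with more Sftpc it was 5 members in 15 cells labelled knockout and 4 in 17 wild-type cells. Per 1000 detected genes the medians lay between 1.51 and 1.53 members in all 4 of these groups of cells. Of the Scgb1a1-higher cells, 28 of 46 labelled knockout and 30 of 49 wild-type ones had Ift20 detected. Of the Sftpc-higher cells it was 11 of 15 labelled knockout and 11 of 17 wild type.

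The 3 cells richest in members for their gene number were those that expressed the motile axoneme. These cells, picked after their values were seen for having at least 10 of the 20 axoneme genes, are a description without a test; the other 124 cells had at most 3 axoneme genes. On the chip labelled knockout, 1 had 19 axoneme genes and 14 members among 3192 detected genes, and 1 had 14 axoneme genes and 10 members among 2493. The cell on the wild-type chip had 12 axoneme genes and 15 members among 3455. They had 4.39, 4.01 and 4.34 members per 1000 detected genes, while the other cells had a median of 1.51 and a highest value of 3.91. Traf3ip1, Ift43 and Dync2h1 were detected in all 3, and 14 of the 35 members in at least 2, while 13 were detected in none. Ift20, the member detected in most cells, was at 0 TPM in both of those labelled knockout and 7.07 TPM in the wild-type one. Traf3ip1 was at 142 and 3.46 TPM in those labelled knockout and 36.1 TPM in the wild-type one, against detection in 10 of all 127 cells. Foxj1 was at 0.07 and 0 TPM in those labelled knockout and 24.4 TPM in the wild-type one. Of the pair labelled knockout, the richer had 463191 TPM of Scgb1a1 and the other 168375 TPM of Sftpc, and the wild-type cell had 296489 TPM of Scgb1a1. The other Scgb1a1-higher cells had a median of 380677 TPM of Scgb1a1, and the other Sftpc-higher cells one of 260328 TPM of Sftpc. Wells with doublets were removed by inspection per the labels' protocol, and no doublet caller was run.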

How the data were processed

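Bulk values are FPKM in 1 table of 6 libraries, as deposited by the authors; the submitters' processing notes name TopHat, Bowtie2, Cufflinks and the build mm10, with no versions. Single-cell values are TPM in 1 table per chip, as deposited by the authors; the same notes name RSEM 1.2.20, Bowtie 1.1.1 and GRCm38. Neither unit carries counts, so no count test was used. Genes with 3 or more libraries at an FPKM of 1 or above and no marked entry (11957) were transformed to log2(FPKM + 1), which understates the change of low genes. They were fitted with limma 3.58.1 under R 4.3.3, using a trended, robust eBayes; p-values are two-sided, Benjamini-Hochberg adjusted over all these genes, with a threshold of 0.05. Separate animals are not stated for the libraries, so the p-values cover only the scatter of these libraries, part of which may be technical. The step was run on simulated data with independent noise, no outlying library and planted changes larger than most members' fold changes. That run therefore does not cover changes of the members' size or the deviation of wild-type replicate 1. The column name of wild-type replicate 6 lacks a prefix that the other 5 share. Cells marked for debris or a valve (3 labelled knockout, 1 wild type) or under 1000 genes (3 and 6) were left out, and 2 samples labelled knockout had no matched column and are not analysed here. Promoters are from RefSeq (GRCm38.p6) and gene coordinates from GENCODE M21 (mm10). Members and lists were chosen with earlier results of these data known. Named were the 8 members of smallest p, the 2 largest and 2 smallest fold changes of each complex, those past the threshold without wild-type replicate 1, the 2 smallest p of each list, and in cells the 6 most detected members and the 4 of largest difference in share. Dync2h1 and Bbs9 were also named in cells, as the other members whose interval of that difference lay above 0. Alternatives were other pseudocounts, filters, scalings, library weights and each library left out.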

Additional observations from a re-analysis of the deposited data

How the results depend on the processing

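The members' fold changes kept their sign in 29 of 34 genes over the 14 bulk alternatives run. With 1 library left out, Ift20 ran from -0.00672 to 0.21, Ift57 from -0.0359 to 0.38, Ift80 from -0.15 to 0.37, Bbs4 from -0.0336 to 0.29 and Dync2li1 from -0.12 to 0.21. The low ends were without wild-type replicate 5 for Ift20 and without wild-type replicate 6 for the rest. Dync2li1 was also at -0.0179 with libraries shifted to the same median and at -0.000539 with upper quartile scaling. Library weights estimated by limma gave wild-type replicate 1 a weight of 0.236 and replicate 5 one of 4.06; 913 genes then passed (5.47% of genes higher and 2.17% lower), with 18 members (17 higher and Bbs10 lower), and 28 members had an unadjusted p under 0.05 (26 higher and 2 lower, against 1585 and 1320 of 11957 genes). Over all genes 2 passed with a pseudocount of 0.1 or 0.01. With 1 library left out, 1 to 408 genes passed, 0 to 5 members passed, 8 to 25 had an unadjusted p under 0.05 and 15 to 29 had groups that do not overlap, the high end of each being without wild-type replicate 1. Over all genes in those settings, 460 to 1152 were higher and 408 to 849 lower at that unadjusted p, and 1534 to 2184 lay higher and 1590 to 2072 lower without overlap. The causes of these ranges were not tested, and groups of fewer libraries are in any case easier to find without overlap. The median fold change stayed between 0.26 and 0.46, within the spread between libraries, in all alternatives. The single-cell median difference of the members moved by less than the spread of that difference between members. The difference in detected share moved by less than the counting error of a median member, and that in members per cell by less than the spread between cells. This included leaving out the 3 axoneme-rich cells, a setting chosen after seeing the data. The levels themselves moved: the median number of members per cell was 9 in cells labelled knockout and 8 in wild-type cells counting any TPM above 0, and 3 in cells labelled knockout and 2 in wild-type cells at a TPM of at least 10. No paired analysis was possible because the bulk groups share no replicate numbers and the cells were numbered in accession order. Read depth is unknown from FPKM and TPM, so for Kif17, Bbs10 and Bbs12 a difference in the single cells was not detectable rather than absent.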
